A study of Mus musculus with 2 samples.

Results

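The genes examined encode the proteasome, and were taken as every gene whose symbol begins with Psma to Psmg and a digit. Probes were named through their RefSeq accession, and 50 such genes had a probe, of 20642 named genes in all. Of the 50, 48 encode subunits, activators, an inhibitor or assembly chaperones of the proteasome. The others, Psmc3ip, a factor of meiotic recombination, and Psme3ip1, a binding partner of Psme3, match the name pattern and were kept in the counts. The cells were splenic red pulp macrophages, sorted as F4/80-positive and CD11b-low, from SIRPα-KO mice and from WT mice. Cells of 5 mice were pooled for each genotype, and each pool gave 1 array. The knockout allele and the strain, sex and age of the mice were not stated in the labels. The RNA was cleared of globin transcripts before labelling, and both arrays lay on 1 slide read in 1 scan. SIRPα is a surface receptor through which CD47 on other cells restrains phagocytosis.

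The proteasome is the main machine for degrading ubiquitin-tagged proteins. Its barrel-shaped core particle has outer rings of alpha subunits, which gate the entrance, and inner rings of beta subunits, of which Psmb5, Psmb6 and Psmb7 cut proteins. In immune cells and under interferon-γ these can be replaced by the inducible subunits Psmb8, Psmb9 and Psmb10, which give the immunoproteasome, known for making peptides for MHC class I. A regulatory particle, made of a base with a ring of ATPases and a lid, binds and unfolds substrates, and other activators such as PA28, a ring of Psme1 and Psme2, open the core without ATP.

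Labelled RNA was read on 1-colour arrays, and signals are spot intensities after the scanner software's background subtraction. The 75th percentile of the signal was 89.2 on the array labelled SIRPα-KO and 100.2 on the WT array, and log2 values are given relative to it. Sirpa, the targeted gene, had a signal of 1006 on the array labelled SIRPα-KO and 795 on the WT array (log2 difference 0.51 ± 0.20), so its signal goes against the label. Whether that probe reads the deleted stretch is unknown here, and directions below follow the labels alone. In every difference the WT value was subtracted from that of the SIRPα-KO label. The value after ± combines the signal errors that the scanner software gave for the pair of spots, and covers neither mice nor pools. Over all 14159 genes on both arrays the median absolute difference was 0.33, with quartiles of the difference at -0.37 and 0.28. A difference beyond an error of 0.20 is therefore common on these arrays. With 1 array per genotype no test was possible, no difference has a replicate check, and genes were counted when the arrays differed at least 2-fold (1 on the log2 scale). On both arrays 9 of 11 red pulp macrophage markers were well above background, and Mertk and Itgad were not on either. RNA of fewer cells of a type and less RNA per cell cannot be told apart in such pools.

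Promoter sequence is shown for 5 of the members: the PA28 partners Psme1 and Psme2, the standard catalytic subunits Psmb5 and Psmb6, and the inducible Psmb8. Psmb8 was not well above background on either array. Each runs from 250 bases before the start of the gene to 30 bases from it, 5′ to 3′ on the strand of the gene, from RefSeq. Capitals mark matches on either strand to any of 3 motifs, the interferon-stimulated response element GAAANNGAAA (ISRE), the gamma-activated site TTCNNNGAA (GAS), known from interferon-γ-induced genes, and the core of the antioxidant response element TGACNNNGC (ARE), bound by the factors Nfe2l1 and Nfe2l2, of which Nfe2l1 is known to drive proteasome genes.
Psme1 (GRCm38.p6, chr14:55578244-55578523, plus strand): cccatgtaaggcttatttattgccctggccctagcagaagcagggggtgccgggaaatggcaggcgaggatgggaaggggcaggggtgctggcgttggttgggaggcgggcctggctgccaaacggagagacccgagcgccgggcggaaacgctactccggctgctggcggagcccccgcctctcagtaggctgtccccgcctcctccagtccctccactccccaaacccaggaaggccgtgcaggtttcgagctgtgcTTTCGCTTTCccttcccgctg
Psme2 (GRCm38.p6, chr14:55591072-55591351, minus strand): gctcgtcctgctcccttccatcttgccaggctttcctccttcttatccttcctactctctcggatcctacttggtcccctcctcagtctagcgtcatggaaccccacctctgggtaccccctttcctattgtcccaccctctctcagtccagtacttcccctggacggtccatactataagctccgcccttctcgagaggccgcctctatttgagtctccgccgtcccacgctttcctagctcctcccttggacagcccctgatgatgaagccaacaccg
Psmb5 (GRCm38.p6, chr14:54617966-54618245, minus strand): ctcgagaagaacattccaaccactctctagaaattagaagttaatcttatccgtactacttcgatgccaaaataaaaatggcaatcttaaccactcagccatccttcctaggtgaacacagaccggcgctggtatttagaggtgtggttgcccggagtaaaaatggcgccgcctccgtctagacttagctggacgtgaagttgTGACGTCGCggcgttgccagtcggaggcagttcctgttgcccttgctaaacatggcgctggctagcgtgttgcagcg
Psmb6 (GRCm38.p6, chr11:70525107-70525386, plus strand): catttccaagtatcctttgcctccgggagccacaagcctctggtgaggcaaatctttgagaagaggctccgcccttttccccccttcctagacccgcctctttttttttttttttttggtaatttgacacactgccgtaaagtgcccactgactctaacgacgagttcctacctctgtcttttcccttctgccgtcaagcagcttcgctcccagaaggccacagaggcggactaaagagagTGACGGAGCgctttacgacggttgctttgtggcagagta
Psmb8 (GRCm38.p6, chr17:34197945-34198224, plus strand): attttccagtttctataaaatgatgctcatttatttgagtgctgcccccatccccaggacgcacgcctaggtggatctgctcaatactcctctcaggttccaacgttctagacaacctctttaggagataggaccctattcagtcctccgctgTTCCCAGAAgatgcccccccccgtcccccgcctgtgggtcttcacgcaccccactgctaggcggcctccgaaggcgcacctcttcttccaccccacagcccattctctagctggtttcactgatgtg

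Psme1 held an ISRE match on the opposite strand that began 10 bases from the start of the gene, and the Psme2 window held none of the motifs. Psmb5 and Psmb6 each held an ARE match, 47 and 9 bases before the start, and Psmb8 a GAS match 97 bases before it. A window was found for 42 of the 50 genes, some with a further start, giving 46 windows; it was not for Psma8, Psmb1, Psmb2, Psmb7, Psmc3, Psmd3, Psmd7 and Psmg2. ISRE matches lay in 5 of these windows (10.9%), of Psmb3, Psmd4, Psmd9, Psme1 and Psmg4, against 3.28% of all 32851 promoter windows. GAS matches lay in 3 (6.52%), of Psmb8, Psmd2 and Psmg1, against 7.83%, and ARE matches in 6 (13.0%), of Psmb5, Psmb6, Psmc6, Psmd9, Psmd12 and Psme4, against 11.5%. No match overlapped one of another motif. A match describes the letters only.

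Of the 50 genes, 38 were measured, that is, well above background on at least 1 array, and 35 on both. Psmc4, Psmd9 and Psme3ip1 were so on the WT array only. The other 12 were not well above background on either array: Psma6, Psma8, Psmb1, Psmb8, Psmb11, Psmc6, Psmd5, Psmd6, Psmd14, Psmf1, Psmg3 and Psmc3ip. Among them are Psma6, Psmb1, Psmc6, Psmd6 and Psmd14, obligate parts of the core, base and lid, beside the testis form Psma8 and the thymus form Psmb11. Their highest signal was 7.94, of Psmd14 on the array labelled SIRPα-KO. The lowest signal well above background was 8.98 there and 7.92 on the WT array.

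**Figure D1:**
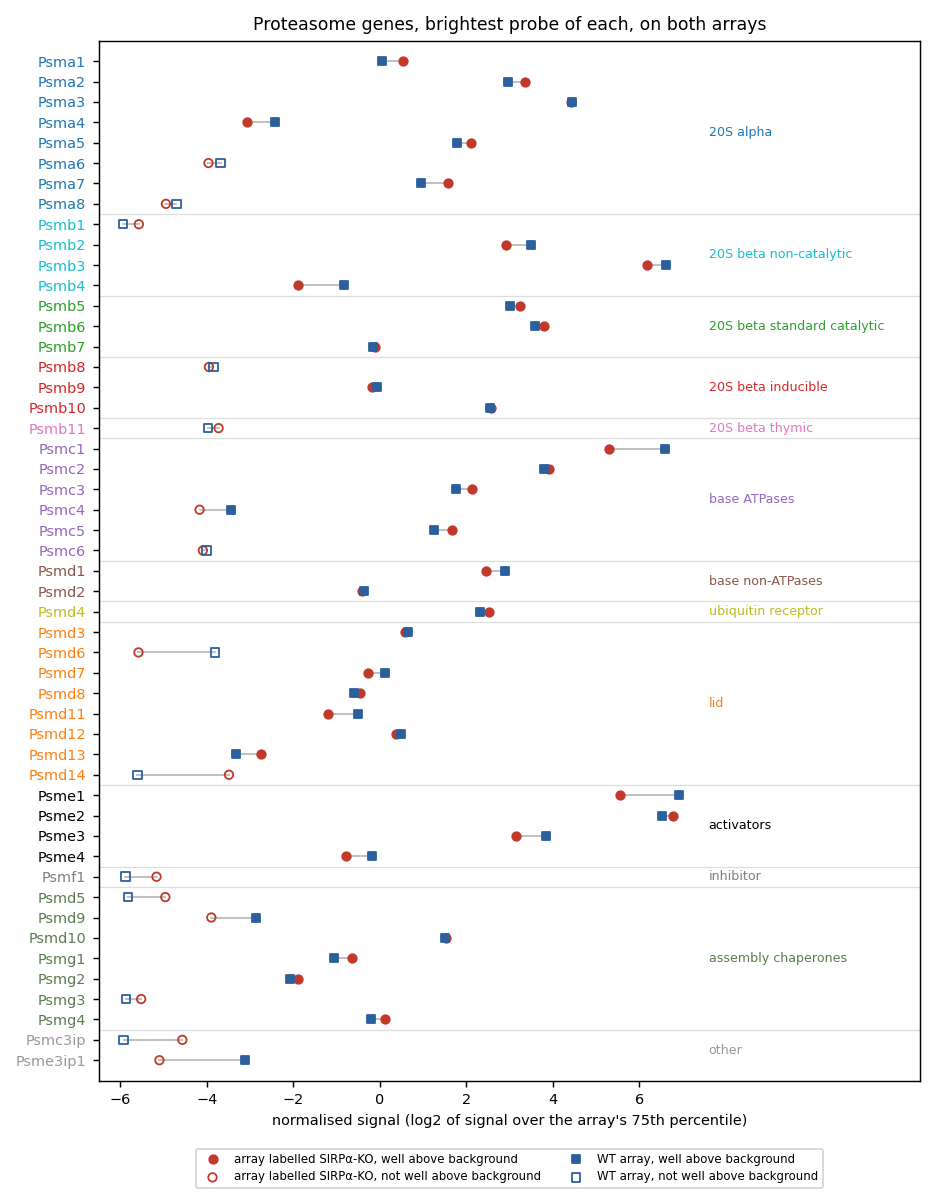
Normalised signal (log2 of signal over the 75th percentile of the array) of the brightest probe of each of the 50 genes, grouped by role, with circles for the array labelled SIRPα-KO and squares for the WT array; open symbols were not well above background. Psme1 and Psmc1 show the widest gaps between filled symbols, and Psmb8 is open on both.

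Proteasome genes had a median difference near 0, and the members furthest from it lay on the lower side. Of the 38 measured members, 19 lay above 0 and 18 below, with a median log2 difference of 0.01 against -0.09 over all 15828 measured genes. None was at least 2-fold higher, against 3.10% of all measured genes. Psme1, Psmc1 and Psmb4, 3 of 38 (7.89%), were at least 2-fold lower, against 5.50% of all measured genes, a share near the background. At 1.5-fold, 1 member (2.63%) was higher, Psma7, against 11.4% of all measured genes, and 7 (18.4%) were lower, against 13.7%; Psme3, Psme4, Psmd11 and Psma4 were those beside the 3 named. None of these 5 further calls at 1.5-fold held under every alternative. Psme3 was at -0.40 after quantile normalization and -0.46 with the authors' values. After normexp Psma4 was at -0.07, Psmd11 at -0.37, Psme4 at -0.33 and Psma7 at 0.49. Normexp here adds an offset of 50 to each signal, which by its construction draws the differences of dim probes towards 0. Its values are therefore no check of calls at dim probes such as those of Psma4, Psmd11 and Psme4. Other alternatives also put some of these calls short of 1.5-fold. Psma4 was at -0.56 after quantile normalization, -0.49 with cyclic loess and -0.57 with the authors' values. Psme4 was at -0.39 with the mean of its probes and -0.18 at its next probe, and Psma7 at 0.46 without scaling. Psmd11 fell short after normexp alone. The split over all genes depended on scaling: quantile normalization put 4.26% at least 2-fold higher and 4.62% lower, cyclic loess 4.04% and 4.74%, the authors' values 4.11% and 4.61%, no scaling 1.91% and 7.51%, and normexp 0.644% and 3.65%. Without scaling, 14 members lay above 0 and 24 below. Among the 35 members on both arrays the SD of the differences was 0.52, and among all 14159 genes on both arrays it was 0.62.

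**Figure D2:**
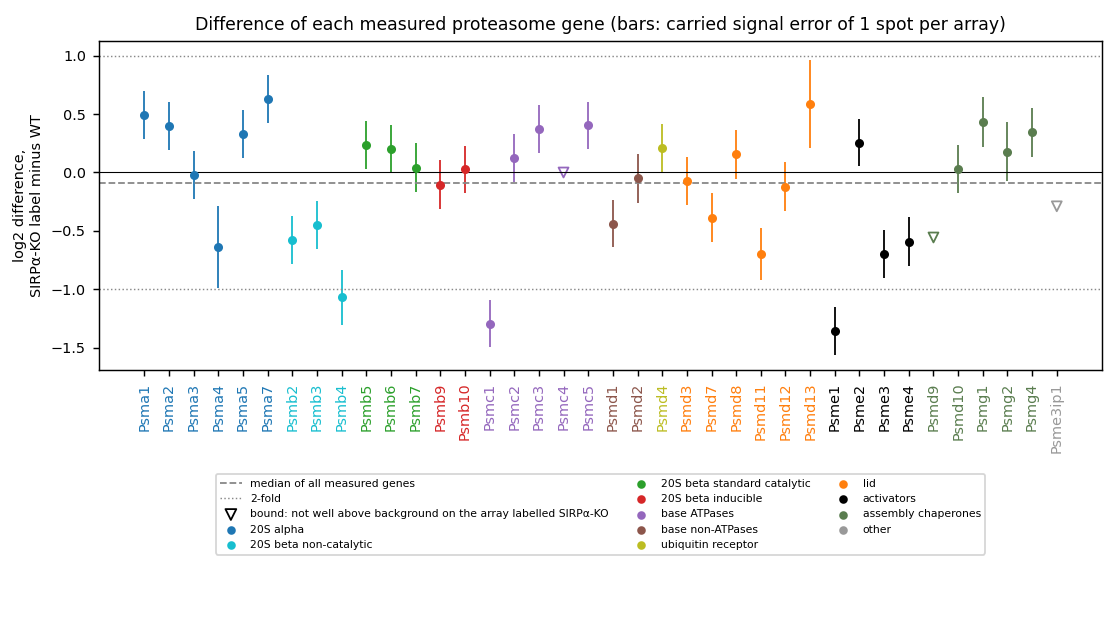
Log2 difference (SIRPα-KO label minus WT) of the 38 measured members by role. Bars are the carried signal error, triangles are bounds, the dashed line is the median of all measured genes (-0.09) and dotted lines mark 2-fold; only Psme1, Psmc1 and Psmb4 lie beyond them.

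The alpha subunits of the core were mostly higher on the array labelled SIRPα-KO, none by 2-fold. Of 6 measured, 4 lay above 0 and the median was 0.36. Psma7 had a signal of 266 on the array labelled SIRPα-KO and 193 on the WT array, a difference of 0.63 ± 0.20, or 1.55-fold higher. Psma1 (129 against 103, 0.49 ± 0.21), Psma2 (920 against 783, 0.40 ± 0.20) and Psma5 (387 against 347, 0.33 ± 0.20) lay on the same side, each beyond its error. The size of the Psma5 difference was that of the median absolute difference of all genes on both arrays (0.33). Psma3, with 1916 and 2184, differed by -0.02 ± 0.20. Psma4 went the other way, with a low signal of 10.6 on the array labelled SIRPα-KO and 18.5 on the WT array (-0.64 ± 0.35). The signs of Psma1, Psma2, Psma5 and Psma7 were the same under each of the 10 alternatives of processing, in which Psma3 ranged from -0.19 to 0.32. Other probe choices and the filter on dim probes, among those 10, cannot change genes with a single probe that is bright on both arrays.

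The beta subunits without catalytic activity went the other way: all 3 measured, Psmb2, Psmb3 and Psmb4, had negative differences. With the scaling used here each was more than 2 errors from 0, and so were 12 of the 38 measured members in all. The share of all genes beyond 2 errors was not counted, so the size is not set apart from theirs. Psmb4 had a signal of 23.9 on the array labelled SIRPα-KO and 56.3 on the WT array, 2.10-fold lower (-1.07 ± 0.24). Psmb2, with 677 and 1137, differed by -0.58 ± 0.20, and Psmb3, with 6443 and 9875, by -0.45 ± 0.20. The size depended on the scaling for Psmb3, at -0.18 after quantile normalization and -0.21 with cyclic loess or the authors' values, each within or close to its error, and for Psmb2, at -0.29 after quantile normalization and -0.35 with the authors' values. After normexp background correction the Psmb4 difference was -0.36 and no longer 2-fold. That setting adds an offset of 50, which by its construction shrinks the difference of a probe as dim as this one. Each of these genes had 1 probe on 1 spot.

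The measured catalytic subunits differed by less than 1.5-fold. Psmb5, the chymotrypsin-like subunit, had a signal of 849 on the array labelled SIRPα-KO and 811 on the WT array (0.24 ± 0.20). Psmb6, the caspase-like subunit, had 1236 and 1205 (0.20 ± 0.20), and Psmb7, the trypsin-like subunit, had 81.9 and 89.4 (0.04 ± 0.21). Psmb5 and Psmb6 lay above 0 under every alternative, from 0.07 to 0.52 and from 0.04 to 0.51, highest after quantile normalization in both, while Psmb7 ranged from -0.13 to 0.05. Of the inducible subunits, Psmb9, which takes the place of Psmb6, had 78.8 on the array labelled SIRPα-KO and 95.0 on the WT array (-0.10 ± 0.21). Psmb10, which takes the place of Psmb7, had 529 and 584 (0.03 ± 0.20). Both lay within their error, and Psmb10 ranged from -0.14 to 0.27 over the alternatives. Psmb8, which takes the place of Psmb5, had 5.76 and 6.95, not well above background on either array, so no fold is given.

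The contrast of inducible against standard catalytic subunits does not depend on a constant scaling. The mean difference of Psmb9 and Psmb10 was -0.04 ± 0.15, that of Psmb5, Psmb6 and Psmb7 was 0.16 ± 0.12, and the inducible minus the standard value was -0.20 ± 0.19, close to its error. It ranged from -0.27 to -0.18 over 10 alternatives, some of which, such as another constant scaling, cannot move it. By partner, Psmb9 minus Psmb6 was -0.31 ± 0.29 and Psmb10 minus Psmb7 was -0.01 ± 0.29. The partner Psmb8 for Psmb5 could not be compared.

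Among the ATPases of the base, 3 of 5 measured lay above 0, with a median of 0.12, and Psmc1 stood apart. At its brightest probe Psmc1 had a signal of 3518 on the array labelled SIRPα-KO and 9687 on the WT array, 2.45-fold lower (-1.29 ± 0.20). At its next probe it had 20.7 and 16.9, a difference of 0.46 ± 0.29, so the probes disagree in sign. Psmc5 (283 against 240, 0.40 ± 0.20) and Psmc3 (389 against 338, 0.37 ± 0.20) were higher by more than their error at their brightest probe, though the next probe of Psmc3 was at 0.02 ± 0.23. Psmc2, with 1345 and 1388, differed by 0.12 ± 0.20. Psmc4 had 4.96, not well above background, and 9.25; its bound crossed 0, so no fold is given. The scaffold subunits of the base, Psmd1 and Psmd2, differed by -0.44 ± 0.20 (490 against 745) and -0.05 ± 0.21 (66.5 against 77.4). Psmd4, a ubiquitin receptor of the regulatory particle, had 510 and 495 (0.21 ± 0.20).

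In the lid, 4 of 6 measured subunits lay below 0, with a median of -0.10. Psmd11, a lid subunit known to promote assembly with the core, had 38.6 on the array labelled SIRPα-KO and 70.3 on the WT array, 1.62-fold lower (-0.70 ± 0.22). Psmd7, the partner of the deubiquitinase Psmd14, had 73.5 and 108 (-0.39 ± 0.21). Psmd13 had low signals of 13.2 and 9.93 (0.58 ± 0.38). The structural lid subunits Psmd3 (133 against 157), Psmd8 (65.4 against 65.9) and Psmd12 (115 against 141) lay between -0.12 and 0.16, each within its error. Psmd14 itself, the enzyme that removes ubiquitin chains, was not well above background on either array.

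The activators held the largest difference among the measured members. Of the 4, 3 lay below 0 and the median was -0.65. Psme1, the alpha subunit of PA28, was read from 9 spots, which ran from 3958 to 4560 with a median of 4182 on the array labelled SIRPα-KO, and from 11183 to 12958 with a median of 12153 on the WT array. The spots of the arrays did not overlap, with SDs of 0.06 and 0.08 on the log2 scale; they share 1 labelled RNA each. The difference was -1.36 ± 0.20, or 2.57-fold lower. Psme2, which forms the same ring, had 9797 on the array labelled SIRPα-KO and 9214 on the WT array (0.26 ± 0.20) and at its next probe 74.5 and 99.0 (-0.24 ± 0.21). Psme1 minus Psme2 was -1.62 ± 0.29 at their brightest probes. Psme3, the nuclear activator that forms a ring of its own, had 790 and 1441, 1.62-fold lower (-0.70 ± 0.20). Psme4, the large nuclear activator PA200, had 51.8 and 87.8, 1.51-fold lower (-0.59 ± 0.21), with its next probe at -0.18 ± 0.27. The members with an ISRE match did not lie on one side: beside Psme1, Psmb3 lay below 0, Psmd4 and Psmg4 (0.34 ± 0.21) lay above, and Psmd9 was a bound.

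Of the assembly chaperones, 4 of 5 measured lay above 0, with a median of 0.18. Psmg1, which with Psmg2 helps to build the alpha ring, had 57.2 on the array labelled SIRPα-KO and 47.7 on the WT array (0.43 ± 0.21), with its next probe at 0.13 ± 0.24, and Psmg2 had 23.9 and 23.8 (0.18 ± 0.25). Psmg4 had 97.4 and 86.3. Of the chaperones of the base, Psmd10 had 258 and 284 (0.03 ± 0.20), and at its next probe 64.8 and 48.9, 1.49-fold higher (0.58 ± 0.22). Psmd9 had 5.99, not well above background, and 13.8, a bound of at least 1.47-fold lower that lay within its error (-0.56 ± 0.64). Psme3ip1 had 2.61, not well above background, and 11.5, a bound of at least 1.22-fold lower, also within its error (-0.29 ± 1.13). The inhibitor Psmf1 was not well above background on either array.

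Bright genes lay lower on the array labelled SIRPα-KO in general, and Psmc1 and Psme1 are among them. Genes on both arrays were cut into 10 bins by mean signal. In the brightest bin (1416 genes) the median difference was -0.33; 18.3% of its genes were lower by 2-fold or more, and 1.98% were higher by as much. That bin held 7 members, Psma3, Psmb3, Psmb6, Psmc1, Psmc2, Psme1 and Psme2, with a median of -0.02. Psmb4 lay in bin 4 from the dimmest, where the median was -0.04 and 2.33% were lower by 2-fold or more. After quantile normalization, which evens out such a trend, Psme1 differed by -1.10, Psmc1 by -1.02 and Psmb4 by -1.07. The part of this trend in the differences of single members was not tested.

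**Figure D3:**
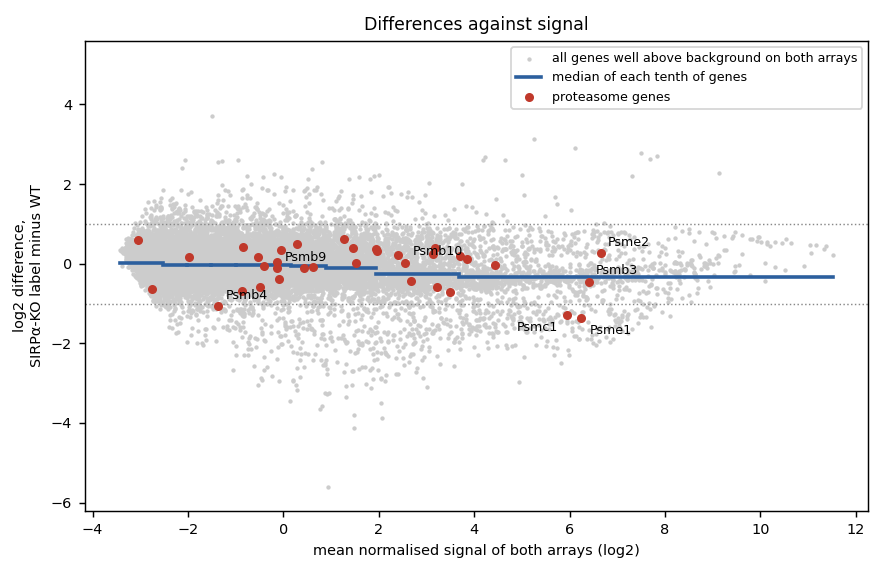
Log2 difference (SIRPα-KO label minus WT) against mean normalised signal (log2) for all 14159 genes on both arrays (grey) and the 35 proteasome genes among them (red). Blue lines are medians of each bin and reach -0.33 in the brightest; Psme1 and Psmc1 lie below it and Psme2 above.

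A second probe gave a check for some members. Of 11 members with a pair of probes, 8 had both well above background on both arrays. In 6 of the 8 the signs were the same, and in 3 the differences lay within their joint error. Psmc2 was closest, with 0.12 and 0.08 at probes of like signal (1345 against 1388, and 1192 against 1264). The gap was over 2 errors for Psmc1 alone, at 1.75. Psme1 and Psmb4 had no further probe.

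**Figure D4:**
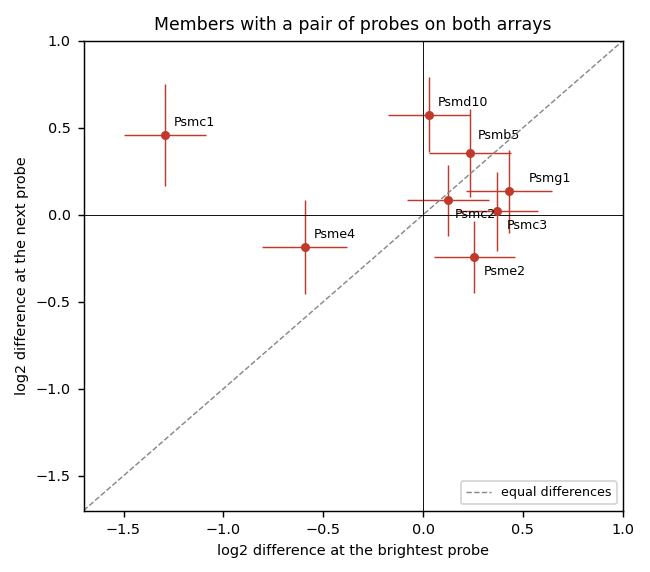
Log2 difference at the next probe against that at the brightest probe for the 8 members with both on both arrays; bars are carried signal errors and the dashed line marks equal differences. Psmc1, at -1.29 and 0.46, lies far from the line.

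Genes that work with the proteasome lay on both sides of 0. Of 17 measured accessory genes, 1 was at least 2-fold higher and none lower, with a median of 0.09; 10 lay above 0 and 5 below. The shares past the same limit among all measured genes, 3.10% higher and 5.50% lower, stand beside this count and those of the next lists. The higher one was Adrm1, a ubiquitin receptor of the base, with a signal of 417 on the array labelled SIRPα-KO and 229 on the WT array, 2.04-fold higher (1.03 ± 0.20). Pomp, the chaperone that matures the core, had 1395 and 1477 (0.09 ± 0.20). Nfe2l1 had 4.13, not well above background, and 11.7, a bound of at least 1.25-fold lower that lay within its error (-0.32 ± 0.72).

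Of 4 measured genes of peptide loading, all lay below 0, with a median of -0.44, and Tap2, a subunit of the peptide transporter, was 2.23-fold lower (30.5 against 76.3, -1.16 ± 0.23). Tap1, its partner, had low signals of 10.6 and 15.9 (-0.45 ± 0.41). Tapbp was a bound within its error, with 8.50, not well above background, and 12.8 (-0.42 ± 0.43). B2m, with 789 and 911, differed by -0.04 ± 0.20. Tapbp and B2m are named after their values were seen. Of 6 regulators of the inducible subunits, 4 lay below 0 and the median was -0.34. Irf1, a transcription factor that induces Psmb9, had 94.0 on the array labelled SIRPα-KO and 222 on the WT array, 2.10-fold lower (-1.07 ± 0.21), with a further probe at -0.22 ± 0.25. Ifngr1, a chain of the interferon-γ receptor, lay on the other side with 512 and 369, 1.56-fold higher (0.64 ± 0.20); it is named after its values were seen.

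Markers of other spleen cells also differed between the arrays, and their part in these differences was not tested. The summed level of 7 B cell markers (signal over the 75th percentile) was 12.3 on the array labelled SIRPα-KO and 24.4 on the WT array, that of 5 plasma cell markers 12.0 and 23.9, that of 6 conventional dendritic cell markers 7.31 and 13.7, and that of 6 T cell markers 71.7 and 86.2. The median differences of these lists were -0.06, -0.85, -0.08 and 0.00. Nearly all of the gap in the B cell, plasma cell and dendritic cell sums came from a single gene of each. These were Cr2 (327 and 1547), Jchain (174 and 1343) and Flt3 (516 and 1217), so the sums do not describe the lists as a whole. Of the 7 B cell markers 3 lay above 0, and of the 6 dendritic cell markers 3 did. Jchain of plasma cells was 6.88-fold lower. Cr2 of B cells was 4.21-fold lower at its brightest probe, and at another it had 220 and 199 (0.31 ± 0.21), the opposite sign. Red pulp macrophage markers summed to 198 and 141, with a median difference of -0.15, and 4 neutrophil markers to 278 and 194, with a median of -0.12, so sum and median differ in direction for both. Most of the neutrophil sum was Csf3r (24661 and 19218), while the other 3 lay below 0, S100a8 by 2.35-fold. The brightest macrophage marker probe, of Adgre1, had 10406 and 6830 (0.78 ± 0.20), and another of its probes was at -0.47 ± 0.20. Csf3r and Adgre1 are named after their values were seen. The summed level of 3 monocyte markers, of which Ccr2 was not well above background on either array, was 1.86 and 3.05, and that of 6 erythroid markers 7.71 and 9.17.

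**Figure D5:**
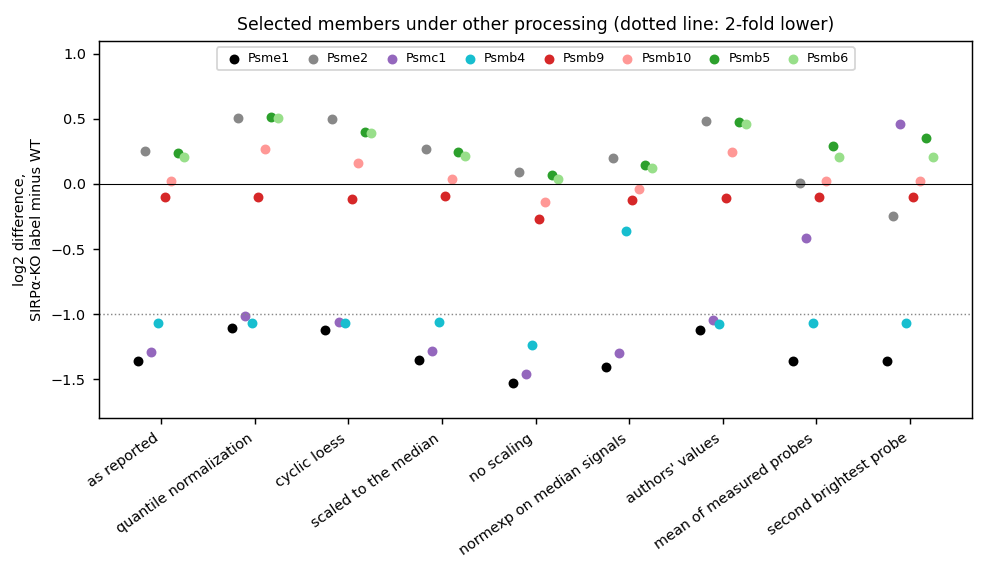
Log2 difference (SIRPα-KO label minus WT) of 8 members as reported and under 8 other ways of processing; the dotted line marks 2-fold lower. Psme1 stays below it in each, Psmc1 leaves it when probes are averaged or its next probe is used, and Psmb4 leaves it after normexp.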

How the data were processed

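Per the file headers, the deposited intensity of each spot came from Agilent Feature Extraction (version 11.0.1.1), for array design 26655 with a grid on mm9. The processed signal is background-subtracted and detrended within each array, per the file headers. The authors' deposited value table is on a log2 scale with a median of 4.56 in each column; its order of probes was that of the scanner signal, its normalization was not stated, and it served as an alternative. Each array's log2 signals were scaled by subtracting their 75th percentile, taken over non-control spots. Of 43020 non-control spots, 321 flagged as outliers on either array were left out, 1 of them of a member (Psme1). Spots of a probe were averaged on the log2 scale, and a gene was represented by its brightest probe. Accessions matched RefSeq of GRCm38.p6, used for names and promoters only, for 27206 of 39386 probes.

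Where a probe was well above background on 1 array only, the dim side was raised to the lowest signal well above background on that array if that was higher, so the fold is a bound ("at least"), set to 0 where the sides crossed. Such a bound carries signal error like any other difference and is no guaranteed minimum. The number of arrays limits precision. The 2-fold rule was tested on simulated arrays, both built from the WT signals, with planted changes larger than 2-fold. They held no trend with signal and no probe that was dim on 1 array only. The bound for dim probes and the effect of such a trend were therefore not tested. Python 3.11.15, R 4.3.3 and limma 3.58.1 were used. Members and lists were chosen with earlier results of these data known; every member was named, and of the other lists those at least 2-fold apart and a fixed few, of which 1 is not reported here. Alternatives were quantile normalization, cyclic loess, the median or no scaling, normexp, the authors' values, no filter on dim probes, other probe choices, flagged spots kept, a 1.5-fold limit and an error limit. The scanner files hold median but no mean spot signals, so normexp (offset 50) ran on the medians.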

Additional observations from a re-analysis of the deposited data

How the results depend on the processing

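The counts of members at least 2-fold higher (0) and lower (3) were 2 and 6 with no filter on dim probes, which adds genes not well above background by its construction, and 1 and 7 at 1.5-fold. The count lower was 2 after normexp, without Psmb4 (-0.36), 2 with the mean of all measured probes, 2 with the second brightest probe and 2 where all measured probes had the same sign. The normexp offset of 50 shrinks the difference of a probe as dim as that of Psmb4 by construction. Psmc1 was -0.42 with the mean of its probes and 0.46 at its next probe, where another probe is read. Psme1 ranged from -1.53 to -1.10. The median over measured members ranged from 0.09 after quantile normalization to -0.14 without scaling, which put that of all genes at -0.26. Over the measured members and 10 settings, 336 differences kept their call or stayed within their error and 39 moved by more than it. Many of the 336 could not have changed. Other probe choices leave members with a single measured probe as they are, and the filter on dim probes leaves members on both arrays as they are. Psmd9 (-1.04) and Psme3ip1 (-1.97) passed 2-fold with no filter. Normexp on median signals, leaving out Psmc3ip and Psme3ip1 and the condition on probe sign were chosen after seeing the data; normexp on mean signals was not run. No paired analysis was possible because each genotype has 1 array. Signals near background, such as those of Psmb8, Psmd14 and Tap1, limit what these arrays can show.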
